A study of Mus musculus with 2 samples.

Results

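The genes described here encode the enzymes and carriers that oxidise fatty acids and use ketone bodies, together with Pdk4, the kinase that turns cells from glucose towards fat as a fuel. They were chosen as a list of 32 mouse genes, and every probe set whose platform annotation gives exactly 1 of their symbols was taken. That gave 53 probe sets for 29 genes, of 34945 probe sets and 18193 genes with a single symbol on the arrays. The probe set annotated to Cpt1b carries several gene symbols and so falls outside the rule, and Acsl1 and Ucp2 were not analysed here. Of the 29 genes, 24 lie outside Chr 2 and Chr 9.

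The tissue was the whole head of newborn mice, measured on 1 expression array for each genotype. The MatDp(dist2) head carried 2 maternal copies of Chr 2 beyond the breakpoint of the translocation T(2:9)11H, also called T11H, and 2 paternal copies of Chr 9 beyond it. The PatDp(dist2) head carried the opposite, with the distal Chr 2 part from the father and the distal Chr 9 part from the mother. Both heads were thus from offspring of translocation carriers, and there was no head of normal parental origin, so no value below is set against a normal newborn. Neither the number of animals behind each RNA nor the sex was stated in the labels. Because each genotype had 1 array, differences could not be set against the spread between animals and none was tested, and each statement compares these particular heads.

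In mitochondrial beta-oxidation, a fatty acid is tied to coenzyme A, carried through the inner membrane as an ester of carnitine, and then shortened in a repeated cycle of oxidation, hydration, oxidation and cleavage. The electrons taken off by the acyl-CoA dehydrogenases pass through the electron transfer flavoprotein to the respiratory chain. At birth a mouse goes from a supply of glucose through the placenta to fat-rich milk, and heart, muscle and brown fat are known for a high capacity for fatty acid oxidation, whereas neurons oxidise little fat and can use ketone bodies.

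Signals are MAS5 values on a linear scale, and a gene stands by its brightest probe set. A signal of 187 or more, the median of both arrays, is called measured, and below it only a bound is given. Over all probe sets the median signal was 201 in the MatDp(dist2) head, against 173 in the PatDp(dist2) head. Of the 29 genes, 27 were measured in both heads, and 25 of these had the lower signal in the MatDp(dist2) head. A signal lower by any amount was found for 49.9% of all genes. In all, 19 of the 27 were at least 2-fold lower in the MatDp(dist2) head, and 0 were at least 2-fold higher. The same 2-fold rule took 3.52% of all 11270 genes measured in both heads as lower and 3.73% as higher. The median log2 ratio of the members, MatDp(dist2) over PatDp(dist2), was -1.20, which is 2.29-fold lower, beside a median of 0.001 for all genes. At 1.5-fold, 23 of the 27 were lower and 1 was higher in the MatDp(dist2) head, beside 11.2% and 10.9% of all genes. The members were chosen with results of these arrays already known, so these counts describe the list and were not tested.

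**Figure D1:**
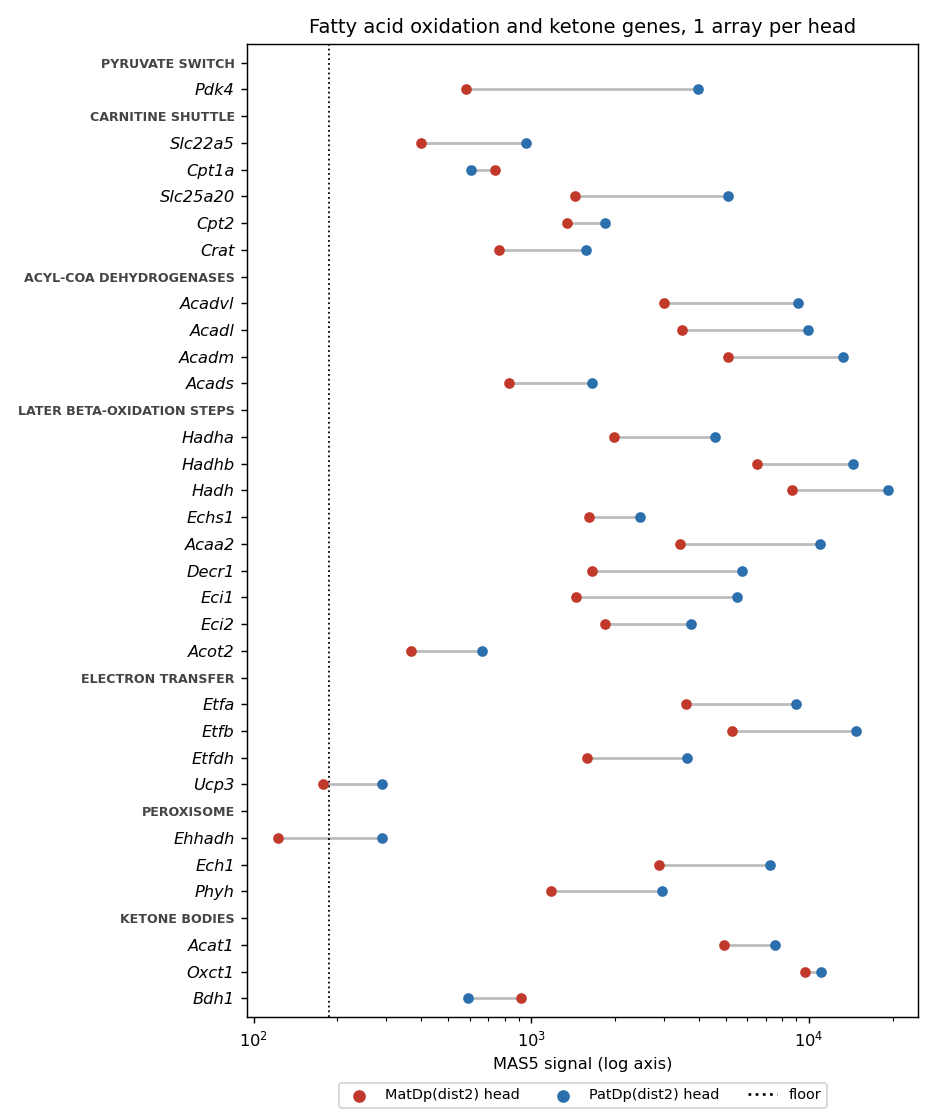
MAS5 signal (horizontal log axis) of each of the 29 genes in the MatDp(dist2) head (red) and the PatDp(dist2) head (blue), 1 array each, grouped by role; the dotted line is the signal of 187 below which a gene counts as not measured. The red point lies left of the blue one in every row except Cpt1a and Bdh1, and levels can be compared within a row but not between genes.

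Many of the members are textbook targets of PPAR nuclear receptors, which bind a direct repeat of the hexamer AGGTCA spaced by 1 base, so the stretches before their start sites were searched for these letters. The promoters of 25 of the 29 genes, 26 in all, were in the RefSeq-derived table for GRCm38.p6, and the 250 bases before each start site were searched on both strands. The full repeat AGGTCANAGGTCA was in 0 of the 26 and in 0.0335% of all 32851 promoters of that table. The single hexamer, which is part of the repeat, was in 5 of the 26, those of Acadm, Acadvl, Cpt1a, Echs1 and Ucp3, and in 14.0% of all promoters. The motif TCAAGGTCA of the estrogen-related receptors, which contains the hexamer, was in 0 of the 26 and in 0.387% of all. A match in these letters is not a site of binding, and a lack of one concerns these exact letters in these 250 bases only. The repeat and the estrogen-related receptor motif were so rare over all promoters that 0 of 26 says little about the members. The 4 promoters below are shown because Acadm and Acadvl hold the hexamer and were lower in the MatDp(dist2) head, Cpt1a holds it and gave no single direction, and Pdk4 holds none and had the lowest ratio of the members. They were chosen after the signals were seen. Each runs from 5′ to 3′ on the strand of its gene and ends at the base before the start site, with the hexamer or its reverse complement in capitals. In GRCm38.p6 they are chr3:153944644-153944893 on the minus strand, chr11:70015429-70015678 on the minus strand, chr19:3323051-3323300 on the plus strand and chr6:5496279-5496528 on the minus strand.
Acadm: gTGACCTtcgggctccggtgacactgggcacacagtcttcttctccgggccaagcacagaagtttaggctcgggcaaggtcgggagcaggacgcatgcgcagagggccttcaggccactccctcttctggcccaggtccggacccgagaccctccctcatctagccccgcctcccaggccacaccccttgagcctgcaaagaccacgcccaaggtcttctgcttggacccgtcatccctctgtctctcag
Acadvl: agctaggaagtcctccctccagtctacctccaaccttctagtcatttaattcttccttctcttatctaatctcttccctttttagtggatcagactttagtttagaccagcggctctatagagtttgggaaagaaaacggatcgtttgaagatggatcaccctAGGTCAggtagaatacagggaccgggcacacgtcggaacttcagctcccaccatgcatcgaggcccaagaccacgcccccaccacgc
Cpt1a: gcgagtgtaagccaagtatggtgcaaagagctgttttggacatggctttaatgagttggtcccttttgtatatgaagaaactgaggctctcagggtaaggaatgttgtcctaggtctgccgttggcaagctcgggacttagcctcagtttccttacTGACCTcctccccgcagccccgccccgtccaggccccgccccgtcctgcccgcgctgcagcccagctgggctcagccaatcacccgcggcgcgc
Pdk4: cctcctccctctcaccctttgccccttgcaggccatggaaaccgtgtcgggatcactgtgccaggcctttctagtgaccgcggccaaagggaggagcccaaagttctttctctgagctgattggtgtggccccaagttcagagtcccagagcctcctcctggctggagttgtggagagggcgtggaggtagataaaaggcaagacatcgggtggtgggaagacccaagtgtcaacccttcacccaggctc
The hexamer began 249 bases before the start site in Acadm, 87 bases in Acadvl and 94 bases in Cpt1a, on the reverse strand in Acadm and Cpt1a.

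Pdk4, a mitochondrial kinase that shuts off pyruvate dehydrogenase and so spares glucose when fat is burned, read 583 in the MatDp(dist2) head, against 3968 in the PatDp(dist2) head. It was 6.80-fold lower in the MatDp(dist2) head, and its ratio ranked 8 from the lowest of the 11270 genes. The related kinases lay closer together. Pdk1, which is known as a target of the hypoxia response, had 2159 in the MatDp(dist2) head, against 4132 in the PatDp(dist2) head, 1.91-fold lower on its brightest probe set, with log2 ratios of -0.40 and -0.58 on the other 2 measured in both heads. Pdk2 had 656.5 and 653, and Pdk3 had 629 and 748, in the same order of heads. The log2 ratio of Pdk4 minus that of Pdk2 was -2.77.

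The carnitine shuttle, which moves long-chain acyl groups into the mitochondrion, was uneven. Of its 5 genes measured in both heads, 3 were at least 2-fold lower in the MatDp(dist2) head on their brightest probe sets. The 3 include Crat, whose probe sets ran in both directions. Slc25a20, the carrier that exchanges acylcarnitine for carnitine across the inner membrane, had 1436 in the MatDp(dist2) head, against 5088 in the PatDp(dist2) head, 3.54-fold lower, with 611 and 1583 on its other probe set. Slc22a5, the carnitine importer of the cell surface, had 400 in the MatDp(dist2) head, against 956 in the PatDp(dist2) head, 2.39-fold lower. Cpt2, which rebuilds acyl-CoA on the matrix side, was 1.38-fold lower, with 1340 in the MatDp(dist2) head, against 1846 in the PatDp(dist2) head. The log2 ratio of the carrier Slc25a20 minus that of Cpt2, which acts after it in the same route, was -1.36.

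Cpt1a and Crat gave probe sets of both directions, so neither gene as a whole is given a direction. In the counts by gene each stands by its brightest probe set, which puts Crat among the lower genes and Cpt1a among the higher. Cpt1a encodes the rate-limiting enzyme of the shuttle in most tissues outside muscle. Its brightest probe set, 1460409_at, had 742 in the MatDp(dist2) head, against 604 in the PatDp(dist2) head, 1.23-fold higher, while 1434866_x_at had 326 and 640, 1.96-fold lower. Crat, the acetyltransferase that buffers short acyl groups on carnitine, had 765 in the MatDp(dist2) head, against 1578 in the PatDp(dist2) head on 1417008_at, 2.06-fold lower. Its probe set 1441919_x_at went the opposite way, with 687 and 222, 3.10-fold higher. With the mean of its probe sets in place of the brightest, the log2 ratio of Crat was 0.29, and the count of members at least 2-fold lower was then 18. Cpt1c, the form of neurons, which is not a member, had 600 in the MatDp(dist2) head, against 450 in the PatDp(dist2) head.

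The 4 acyl-CoA dehydrogenases, which take the first pair of electrons off chains of decreasing length, were all lower in the MatDp(dist2) head, at a median log2 ratio of -1.44. Acadvl, for very long chains, had 2998 in the MatDp(dist2) head, against 9149 in the PatDp(dist2) head, 3.05-fold lower. Acadl, for long chains, had 3492 and 9926 in the same order, 2.84-fold lower. Acadm, for medium chains, whose deficiency in humans is a common target of newborn screening, had 5111 and 13259, 2.59-fold lower. Acads, for short chains, had 829 in the MatDp(dist2) head, against 1648 in the PatDp(dist2) head, just inside 2-fold at 1.99-fold lower. The fold was thus ordered by chain length in these heads, though neighbours in that order differed by less than 1.5-fold and without replicates the order was not tested.

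All 9 genes of the later steps were lower in the MatDp(dist2) head, 7 of them by 2-fold or more, at a median log2 ratio of -1.15. Eci1 and Decr1, which act on unsaturated chains, had the largest folds of the 9, while Eci2 lay among the smaller ones. Eci1, an isomerase that moves misplaced bonds, had 1447 in the MatDp(dist2) head, against 5520 in the PatDp(dist2) head, 3.82-fold lower, and Decr1, a reductase for polyunsaturated chains, had 1653 and 5753, 3.48-fold lower. Eci2, a second isomerase, had 1848 in the MatDp(dist2) head, against 3765 in the PatDp(dist2) head, 2.04-fold lower.

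The enzymes of the main cycle went the same way. Acaa2, a thiolase that makes the final cut, had 3428 in the MatDp(dist2) head, against 10922 in the PatDp(dist2) head, 3.19-fold lower, and its other 2 probe sets were 2.76-fold and 1.94-fold lower. The subunits of the trifunctional protein, which carries out the last steps on long chains, lay close to each other, with Hadha at 1990 in the MatDp(dist2) head, against 4564 in the PatDp(dist2) head, 2.29-fold lower, and Hadhb 2.21-fold lower. Hadh, the dehydrogenase for shorter chains, was 2.22-fold lower, with 8668 in the MatDp(dist2) head, against 19233 in the PatDp(dist2) head. The folds of Hadha, Hadhb and Hadh differ by less than the folds of different probe sets of Hadhb, which ran from 1.37 to 2.71. Echs1, the hydratase for shorter chains, was 1.53-fold lower, with 1607 and 2461. Acot2, a thioesterase that splits acyl-CoA in the matrix, was 1.81-fold lower, with 368 in the MatDp(dist2) head, against 666 in the PatDp(dist2) head.

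The 3 electron transfer genes measured in both heads lay close together. Etfa and Etfb, the subunits of the flavoprotein that collects electrons from the dehydrogenases, were 2.49-fold and 2.80-fold lower in the MatDp(dist2) head. Etfa had 3594 in the MatDp(dist2) head, against 8960 in the PatDp(dist2) head, and Etfb had 5286 and 14805. Etfdh, which hands the electrons on to ubiquinone, had 1591 in the MatDp(dist2) head, against 3620 in the PatDp(dist2) head, 2.28-fold lower. Ucp3, a muscle member of the uncoupling protein family, read 178 in the MatDp(dist2) head, just under the floor, against 290 in the PatDp(dist2) head, at least 1.55-fold lower.

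Of the 3 genes grouped under the peroxisome, where very long and branched chains are handled, both that were measured in both heads were at least 2-fold lower in the MatDp(dist2) head. Phyh, which starts the breakdown of phytanic acid, had 1173 in the MatDp(dist2) head, against 2956 in the PatDp(dist2) head, 2.52-fold lower. Ech1, an isomerase found in peroxisomes and mitochondria, had 2873 and 7213, 2.51-fold lower. Ehhadh, the bifunctional enzyme of peroxisomes, read 122 in the MatDp(dist2) head, under the floor, against 290 in the PatDp(dist2) head, at least 1.55-fold lower. In the 4 groups from the acyl-CoA dehydrogenases to the peroxisome together, 18 of 18 genes measured in both heads had the lower signal in the MatDp(dist2) head. Beside this, 49.9% of all genes were lower by any amount, and 2732 of the 4503 genes with a mean log2 signal of at least 10. The carnitine shuttle and ketone body groups, which hold Cpt1a and Bdh1, are not among these 4.

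Of the 3 ketone body genes, 0 were at least 2-fold lower in the MatDp(dist2) head, and their median log2 ratio was -0.18 under the deposited scaling. Oxct1, which activates acetoacetate in tissues that burn ketones, had 9689 in the MatDp(dist2) head, against 11014 in the PatDp(dist2) head, a log2 ratio of -0.18 that became 0.012 with quantile normalization and with the loess fit. Its other 3 probe sets lay between -0.46 and -0.40. Acat1, the mitochondrial thiolase that acts in both making and using ketones, had 4945 in the MatDp(dist2) head, against 7539 in the PatDp(dist2) head, 1.52-fold lower. Bdh1, the dehydrogenase that interconverts the main ketone bodies, was higher in the MatDp(dist2) head on both of its probe sets, with 915 against 593, 1.54-fold, and 674 against 286, 2.36-fold. Among members whose probe sets all ran one way, it was the only gene higher in the MatDp(dist2) head under the deposited scaling, and its log2 ratio stayed between 0.55 and 0.93 in the 8 alternative settings tried. Of the other ketone genes, Slc16a1, a transporter of ketones and lactate, had 992 in the MatDp(dist2) head, against 1600 in the PatDp(dist2) head, and Aacs, which uses acetoacetate for lipid synthesis, had 573 and 554.

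**Figure D2:**
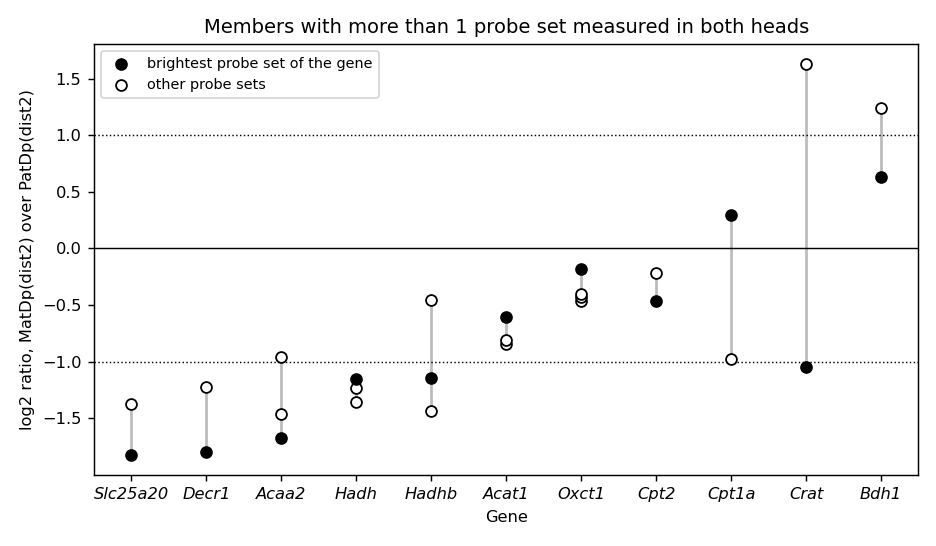
log2 ratio, MatDp(dist2) over PatDp(dist2), of each probe set (points) of the 11 members with more than 1 probe set measured in both heads; filled points are the brightest probe set of each gene and dotted lines mark 2-fold. In 9 of the 11 genes all probe sets lie on the same side of 0, and Cpt1a and Crat have probe sets on both sides.

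At the level of probe sets, 44 of the 53 were measured in both heads, 4 in a single head and 5 in neither. Of the 44, 40 had the lower signal in the MatDp(dist2) head, 25 of them by at least 2-fold, and 4 had the higher signal, 2 of them by at least 2-fold. Those 4 belong to Bdh1, Cpt1a and Crat. Several probe sets can read the same gene, so the 44 are not separate genes, and the share over all probe sets was not counted. Counted by gene, 49.9% of all genes were lower in the MatDp(dist2) head by any amount and 3.52% by at least 2-fold. The median ratios of members on Chr 2 and Chr 9 and of those elsewhere had the same direction. Bdh1 and Cpt1a, which lie elsewhere, were higher in the MatDp(dist2) head on their brightest probe sets. The 5 on Chr 2 and Chr 9, Crat, Phyh, Slc25a20, Etfa and Acat1, had a median log2 ratio of -1.32 with 4 at least 2-fold lower in the MatDp(dist2) head. The 4 include Crat, counted by its brightest probe set. The 22 measured members of other chromosomes had a median of -1.19 with 15 at least 2-fold lower. The labels do not place the breakpoint, so whether any of the 5 lies in a duplicated part is not known here.

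Most members are among the brighter genes of the arrays, where ratios of all genes leaned towards a lower signal in the MatDp(dist2) head. The median log2 ratio of all genes was 0.10 at a mean log2 signal of 7 to 9 and -0.23 at 12 to 13. Among the 4503 genes with a mean log2 signal of at least 10, 5.2% were at least 2-fold lower in the MatDp(dist2) head. The share was 9.3% at a mean log2 signal of 12 to 13, where 5 of 6 members were so. At 13 to 15 it was 4.1%, with 4 of 5 members. A loess fit that removes this lean left 16 of the 27 members at least 2-fold lower, beside 3.59% of all genes. In that fit Hadhb, Hadh and Eci2 moved to -0.95, -0.94 and -0.92 on the log2 scale.

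**Figure D3:**
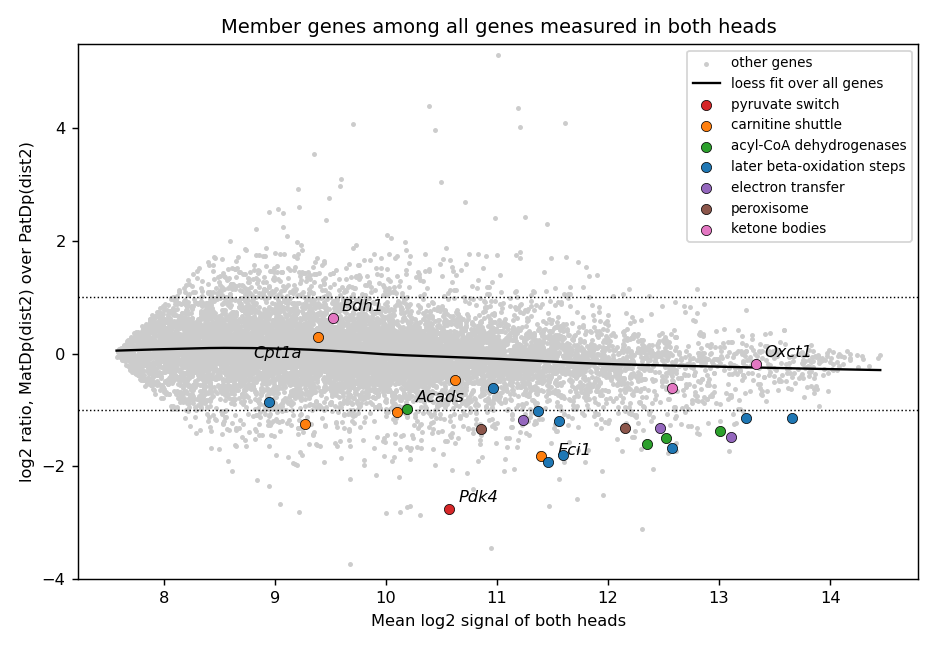
log2 ratio, MatDp(dist2) over PatDp(dist2), against the mean log2 signal of both heads, for the 27 members (coloured by role) and all other genes measured in both heads (grey); the black line is a loess fit over all genes and dotted lines mark 2-fold. Of the 27 members 19 lie below the lower dotted line, Pdk4 lowest, most of them at a mean log2 signal above 11, and Bdh1 and Cpt1a lie above 0.

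Other genes of the pathway were taken from 7 further lists. Of 17 other mitochondrial acyl-CoA enzymes measured in both heads, 6 were at least 2-fold lower in the MatDp(dist2) head and 0 higher, at a median log2 ratio of -0.70. Acss1, which activates acetate, had 1170 in the MatDp(dist2) head, against 3536 in the PatDp(dist2) head, Acot13, a thioesterase, had 1084 and 3146, and Acad11, a dehydrogenase for long chains, had 504 and 1305. Of 9 other peroxisomal genes 1 was at least 2-fold lower, Scp2, a carrier and thiolase, with 2662 in the MatDp(dist2) head, against 5569 in the PatDp(dist2) head, and it was inside 2-fold with quantile normalization and with the loess fit. Its other 2 probe sets measured in both heads were 1.96-fold and 1.60-fold lower. Acaa1b, a peroxisomal thiolase, had a bound of at least 2.33-fold lower. The median log2 ratio of the 9 peroxisomal genes was -0.27, nearer to 0 than that of the mitochondrial list. This contrast depended on the floor. With the floor at the 70th percentile, the medians were -0.696 for 6 peroxisomal genes and -0.701 for 13 mitochondrial ones.

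Fatty acid uptake and activation was uneven, with 2 of 16 genes at least 2-fold lower in the MatDp(dist2) head, 0 higher and a median log2 ratio of -0.20. The 2 were Acacb, the acetyl-CoA carboxylase whose product malonyl-CoA inhibits the carnitine shuttle, with 456 in the MatDp(dist2) head, against 2025 in the PatDp(dist2) head, 4.44-fold lower, and Cd36, a fatty acid receptor and transporter, with 1450 and 4901, 3.38-fold lower. Thus the gene for a brake on the shuttle had the lower signal in the same head as the shuttle's carrier. Fabp4, the fatty acid binding protein of fat cells, had 11110 in the MatDp(dist2) head, against 21051 in the PatDp(dist2) head.

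The pyruvate dehydrogenase complex, which Pdk4 inhibits, was lower in the MatDp(dist2) head too, by smaller folds than Pdk4. Of 12 genes of the complex, its regulators, pyruvate carriers and pyruvate carboxylase, 2 were at least 2-fold lower, 0 were higher, and the median log2 ratio was -0.92. The 2 were Dlat, the acetyltransferase core, with 1673 in the MatDp(dist2) head, against 3978 in the PatDp(dist2) head, and Pcx, pyruvate carboxylase, with 851 and 2111. Dlat was 2.38-fold lower on this brightest probe set and 2.47-fold and 1.88-fold lower on its others. Mpc1, part of the mitochondrial pyruvate carrier, had 3352 in the MatDp(dist2) head, against 6464 in the PatDp(dist2) head, 1.93-fold lower.

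Among 15 regulators measured in both heads, 4 were at least 2-fold lower in the MatDp(dist2) head and 0 higher, at a median log2 ratio of -0.32. Ppara, the nuclear receptor that turns on fat oxidation in fasting and after birth, had 531 in the MatDp(dist2) head, against 1701 in the PatDp(dist2) head. It was 3.21-fold lower, with 232 and 889 on another probe set. Its remaining probe set read 64.3 in the MatDp(dist2) head, under the floor, against 793 in the PatDp(dist2) head, at least 4.24-fold lower. Lpin1, a phosphatase of lipid synthesis that also acts as a coactivator, had 703 and 2756, 3.92-fold lower. Ppargc1a, the coactivator PGC-1alpha, had 394 in the MatDp(dist2) head, against 1065 in the PatDp(dist2) head, 2.71-fold lower, but its other 3 probe sets measured in both heads had log2 ratios between -0.92 and -0.48. The fourth was the related coactivator Ppargc1b, 2.37-fold lower. Pparg, the receptor of fat cells, had a bound of at least 4.62-fold lower. The related receptor Ppard was close to equal, with 382 in the MatDp(dist2) head, against 415 in the PatDp(dist2) head, as were Esrra, with 623 and 689, and Rxra, with 622 and 555; these genes, Ppargc1b included, were picked out after their values were seen.

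Of 4 other PPAR target genes measured in both heads, 3 were at least 2-fold lower in the MatDp(dist2) head and 0 higher. Without probe sets of the _s_at and _x_at kinds, which can read several transcripts, 2 were measured and 1 was at least 2-fold lower. Plin5, a lipid droplet protein of oxidative tissues, had 378 in the MatDp(dist2) head, against 1773 in the PatDp(dist2) head, 4.69-fold lower. Angptl4, a secreted inhibitor of lipoprotein lipase, had 539 and 1899, 3.52-fold lower, and Plin2, a general droplet protein, had 1270 and 2541, 2.00-fold lower.

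**Figure D4:**
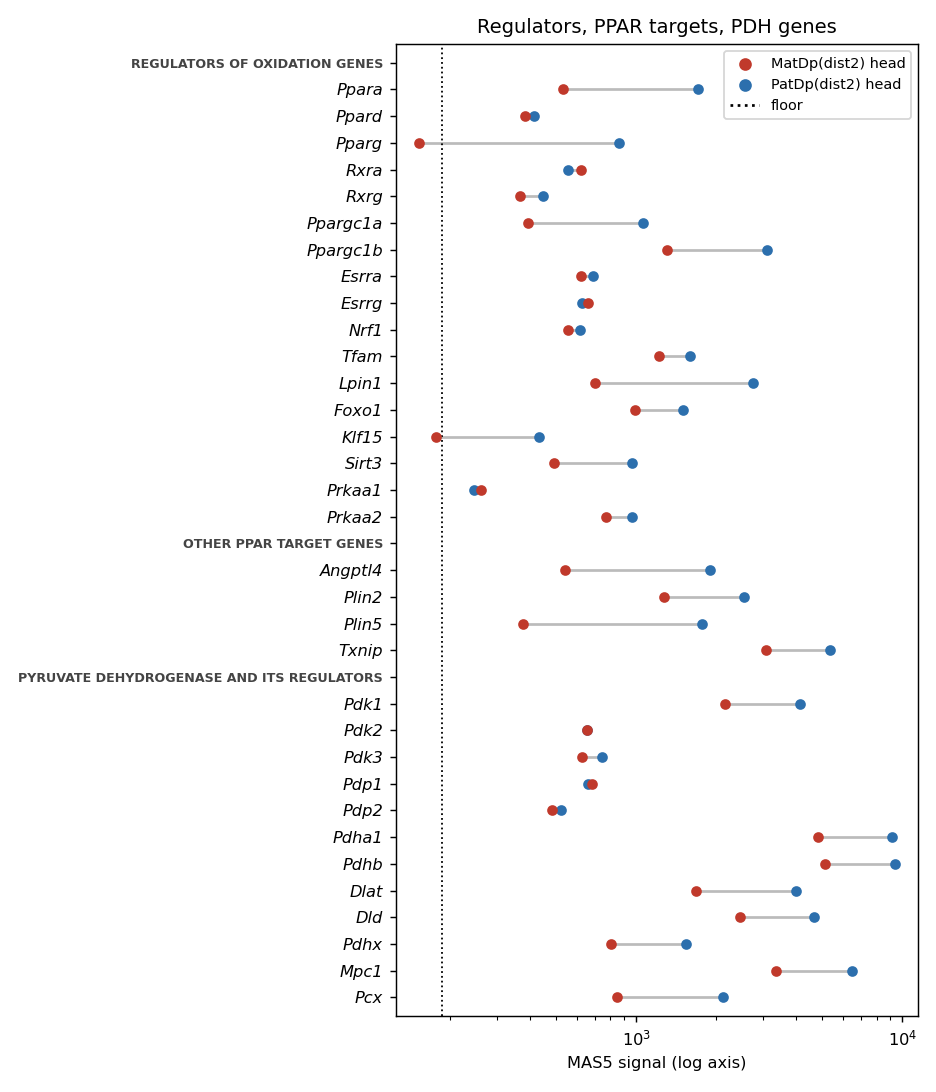
MAS5 signal (horizontal log axis) in the MatDp(dist2) head (red) and the PatDp(dist2) head (blue), 1 array each, of regulators of oxidation genes, other PPAR targets and pyruvate dehydrogenase (PDH) genes measured in at least 1 head; the dotted line is the floor of 187. Ppara, Pparg, Lpin1, Plin5 and Angptl4 have widely separated points, whereas Ppard, Esrra and Pdk2 have points that nearly coincide.

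The members lay further from equality than mitochondrial genes of other functions. A list of 21 such genes, from the citric acid cycle, respiratory chain, carriers and import, had a median log2 ratio of -0.54, with 5 at least 2-fold lower in the MatDp(dist2) head and 0 higher. The median log2 ratio of the members minus that of this list was -0.66, and 12 members had a ratio below that of every gene of this list. The lowest of them was Sdha, a subunit of complex II, with 3892 in the MatDp(dist2) head, against 9326 in the PatDp(dist2) head, 2.40-fold lower. With quantile normalization the median of this list was -0.36 and 1 of its 21 genes was at least 2-fold lower, and with the loess fit the median was -0.39 and the count 3. This difference between lists was not tested.

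Whole heads are mixtures, and markers of tissues rich in fat oxidation differed between these heads too. Of 8 brown fat markers, 5 of the 6 measured in both heads were at least 2-fold lower in the MatDp(dist2) head, at a median log2 ratio of -1.68. The 5 include Ppargc1a, also listed among the regulators, which passed 2-fold on its brightest probe set only. With the mean over probe sets, or without _s_at and _x_at probe sets, the count was 4 of 6. The summed signal of the list was 13060 in the MatDp(dist2) head, against 40790 in the PatDp(dist2) head. Ucp1, the uncoupling protein that defines brown fat, had 5963 in the MatDp(dist2) head, against 13932 in the PatDp(dist2) head. It was 2.34-fold lower, a smaller fold than the list median of 3.20-fold. Cidea, a droplet protein of brown fat, was 4.12-fold lower, and Cox7a1, a respiratory subunit of muscle and brown fat, 4.67-fold lower. Markers of fat of any kind summed to 21160 in the MatDp(dist2) head, against 47710 in the PatDp(dist2) head.

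All 18 skeletal muscle markers were lower in signal in the MatDp(dist2) head, 8 of them by 2-fold or more, at a median log2 ratio of -0.66 and with sums of 131700 in the MatDp(dist2) head, against 188400 in the PatDp(dist2) head. The fold was uneven within muscle. Mb, the oxygen store of oxidative fibres, was 13.3-fold lower. It read 224 in the MatDp(dist2) head, near the floor of 187, against 2983 in the PatDp(dist2) head, and its other probe set was under the floor on both arrays. Acta1, the main sarcomeric actin, picked out after its value was seen, had 17284 in the MatDp(dist2) head, against 17717 in the PatDp(dist2) head. These lie towards the top of the arrays, whose highest signals were 22236.3 and 22894.5 in the same order. The largest list median was that of epidermis markers, which went the other way, at a log2 ratio of 4.02. Their sums were 44840 in the MatDp(dist2) head, against 6221 in the PatDp(dist2) head. The list was uneven, and 3 of its 5 genes measured in both heads passed 2-fold, Krt1, Krt10 and Lor. Lor, a protein of the cornified layer, had 10600.0 in the MatDp(dist2) head, against 517 in the PatDp(dist2) head. The keratins Krt5 and Krt14 differed far less. Krt5 had 4407 in the MatDp(dist2) head, against 2796 in the PatDp(dist2) head, 1.576-fold. Krt14 had 2359 and 1517 in the same order, 1.555-fold. Flg was under the floor in the PatDp(dist2) head, so only a bound of 26.5-fold or more is given. Neuron markers were also brighter in the MatDp(dist2) head, with sums of 31700 there, against 12840 in the PatDp(dist2) head. All 8 liver markers were under the floor on both arrays (sums of 526 and 585), and of 5 heart markers only Tnnt2, also made in immature skeletal muscle, was measured. No marker of these lists was at a signal of 0. In bulk tissue, fewer cells of a type and less RNA per cell cannot be told apart, and the part of tissue make-up in the member ratios was not tested.

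**Figure D5:**
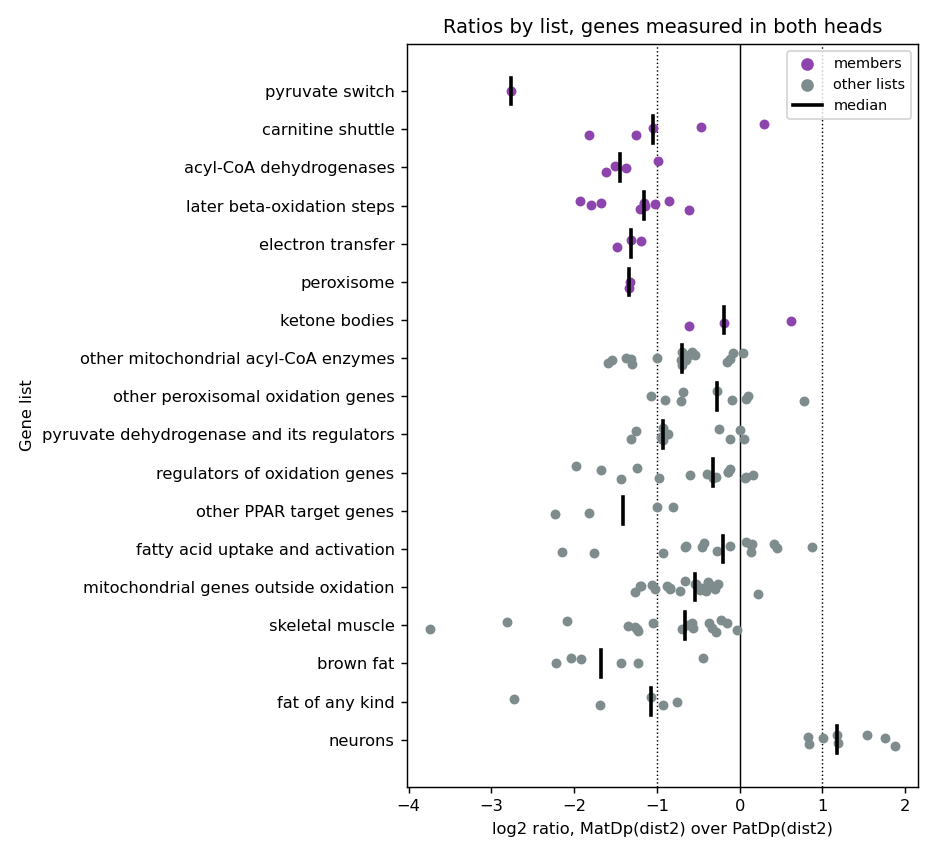
log2 ratio, MatDp(dist2) over PatDp(dist2), of each gene measured in both heads (points) in the 7 role groups of the members (purple) and in other lists (grey), with list medians as black bars and 2-fold as dotted lines. The acyl-CoA dehydrogenase, later beta-oxidation, electron transfer and peroxisome groups have medians below -1, with single genes as high as -0.615 (Echs1). Ketone body genes run from -0.608 to 0.627, and neuron markers lie near or above 1.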

How the data were processed

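RNA of the whole newborn head was hybridised to 1 Affymetrix array per genotype, 2 arrays in all. The authors deposited a linear intensity, the MAS5 signal, for 45101 probe sets on each array. MAS5 and GCOS are named, without versions, per the submitters' processing notes. With the top and bottom 2% of probe sets trimmed, both arrays average 500.0, so each was scaled to the same level. MAS5 subtracts mismatch signals, which makes low values noisy. Precision is limited by the number of arrays.

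After 64 control probe sets were left out, 34945 had 1 gene symbol in the platform annotation, of which 34741 matched a gene ID in a RefSeq table for GRCm38.p6. The floor was the median of both arrays' 50th percentiles. Ratios are MatDp(dist2) over PatDp(dist2), with signals below the floor set to it. The member list and the other lists were chosen with earlier results of these data known. All 32 members are named where analysed, and genes of the other lists were named from the 3 of each list with the largest ratios in either direction, plus a few fixed names. In the marker lists of astrocytes and red blood cells the median log2 ratios were 0.18 and -0.34, and in the list of other ketone genes -0.32. Calculations used pandas 2.3.3 and statsmodels 0.14.6, and the code that computes folds was run on simulated arrays with known folds.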

Additional observations from a re-analysis of the deposited data

How the results depend on the processing

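In 8 other settings (3 scalings, 2 floors, an offset and 2 ways to choose probe sets), the median log2 ratio of the members stayed between -1.26 and -1.09, the count at least 2-fold lower in the MatDp(dist2) head between 16 and 20, and the count of those higher by 2-fold at 0. Of the 19 genes at least 2-fold lower, 14 were measured in both heads and stayed so in each alternative. Crat, Hadhb, Hadh and Eci2 came inside 2-fold in at least 1 alternative, and Slc22a5 was under the higher floor. The count higher by 1.5-fold, 1 under the deposited values, was 0 with quantile normalization, 0 with the loess fit and 0 with an offset of 100. The ketone body median was 0.012 with quantile normalization and 0.012 with the loess fit, against -0.18. With the mean over probe sets the carnitine shuttle median was -0.34, against -1.04, and Crat was 0.29, the only sign change among genes past 2-fold, because a probe set of opposite direction enters the mean. Mitochondrial genes at least 2-fold lower numbered 1 to 5 and other PPAR targets 1 to 3, and the medians of the astrocyte and red blood cell lists changed sign in some alternatives. With the floor at the 70th percentile, 25 members were measured in both heads. No paired analysis was possible because each genotype has 1 array. Depth has no counterpart here: dim members such as Ucp3 and Ehhadh lie at the floor, where only bounds can be given.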
